A study of Mus musculus and Rattus norvegicus with 37 samples.

Results

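The livers described here came from Zucker Fatty rats (ZFR) given BT2 or vehicle, and they made up 8 of the 37 libraries of the series. All 8 rats were 3 month-old males of the Zucker strain, labelled as fatty and obese, with a mutated leptin receptor. The BT2 group (n = 4) received the compound by intraperitoneal injection at 20 mg/kg once a day over 1 week, and the vehicle group (n = 4) received the solvent, dimethylsulfoxide, in the same volume and on the same schedule. The livers were taken in the fed state, and no lean rat was given BT2. Members were the columns of the rat table marked BT2 or vehicle, and 8405 of its 32750 gene entries, those whose name occurred once and whose normalized counts averaged 10 or more, entered the comparison.

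Branched chain amino acids (BCAA) are first transaminated and then oxidised by the branched chain α-keto acid dehydrogenase (BCKDH) complex. A dedicated kinase, encoded by Bckdk, phosphorylates the complex and turns it off, and the phosphatase encoded by Ppm1k removes the phosphate and turns it on. BT2 is a small molecule that inhibits this kinase. In the liver the same kinase and phosphatase are also known to act on ATP citrate lyase, which makes the cytosolic acetyl-CoA from which fatty acids and cholesterol are built. Zucker Fatty rats cannot sense leptin, overeat, become obese and insulin resistant and store triglyceride (TG) in the liver. The question of the comparison was which hepatic genes, above all those of lipogenesis and fatty acid oxidation (FAO), differ after this treatment.

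The 8 libraries were shallow and unequal. Depth, estimated as the sum of a library's normalized counts divided by the value of 1 read in that library, was 0.570, 1.52, 1.53 and 0.383 M reads in BT2 replicates 1 to 4. Vehicle replicates 1 to 4 reached 3.24, 8.96, 2.13 and 0.193 M reads. In vehicle replicate 4 a single read was worth 10.3 normalized counts, so that low values there rest on a handful of reads. That library stood apart on the first principal component (46.7% of the variance) and BT2 replicate 4 on the second (19.4%). Replicates 1 and 2 of both groups were run on one flow cell and replicates 3 and 4 on another, so the flow cell was balanced between BT2 and vehicle. Hepatocyte markers such as Alb, the gene of serum albumin, and Ttr, that of the thyroxine carrier transthyretin, defined all libraries: all 14 on the list were tested and their summed level was 313613 to 380555 normalized counts with BT2 and 318756 to 341581 with vehicle.

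**Figure D1:**
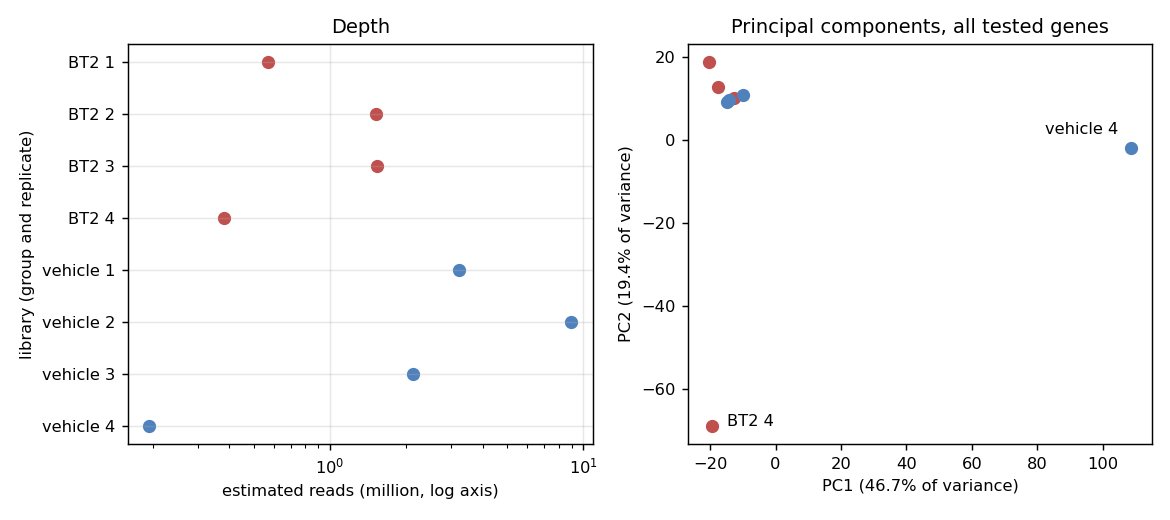
Estimated reads of each library (M) on a log axis (left) and the first 2 principal components of log2(normalized count + 1) over all tested genes (right), with BT2 in red and vehicle in blue. Depth ran from 0.193 to 8.96 M reads, and vehicle replicate 4 and BT2 replicate 4, the shallowest library of each group, lay away from the other 6 libraries.

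Across all 8405 genes, no gene passed an adjusted p of 0.05 by limma, that is 0 genes or 0% of those tested. At an unadjusted p under 0.05 there were 332 genes (3.95%), of which 164 were higher with BT2 (1.95%) and 168 were lower (2%). Leaving out 1 library moved that number between 238 (without vehicle replicate 3) and 517 (without BT2 replicate 3). The 4 BT2 libraries and the 4 vehicle libraries did not overlap in 249 genes (2.96%), of which 128 were higher with BT2 (1.52%) and 121 were lower (1.44%). These shares are the background for every count below. The median log2 fold change over all tested genes was 0.0061, with 50.7% of genes above 0 and 49.3% below. Of the genes named here, the lowest adjusted p values were those of Fasn at 0.51, Cyp4a1 at 0.545, Bcar1 at 0.564 and Mt1 at 0.606. For each remaining gene named here, limma gave an adjusted p between 0.885 and 0.998, so the values below describe these libraries and none of the genes is called as changed. For single genes an exact permutation test over all 70 splits of 4 against 4 libraries was also made, two-sided, and the smallest p it can give is 0.0286. A gene whose groups do not overlap always gets that p. For genes named by their low p or separate groups, the exact p is therefore not independent support. With no difference between the groups, a share of about 0.0286 would be separate and 0.05 would have an unadjusted p under 0.05. The shares seen, 2.96% and 3.95%, were close to the first and below the second. With limma precision weights that follow the estimated depth, or with limma sample quality weights, 1 gene passed, lower with BT2 and the same gene in both fits.

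**Figure D2:**
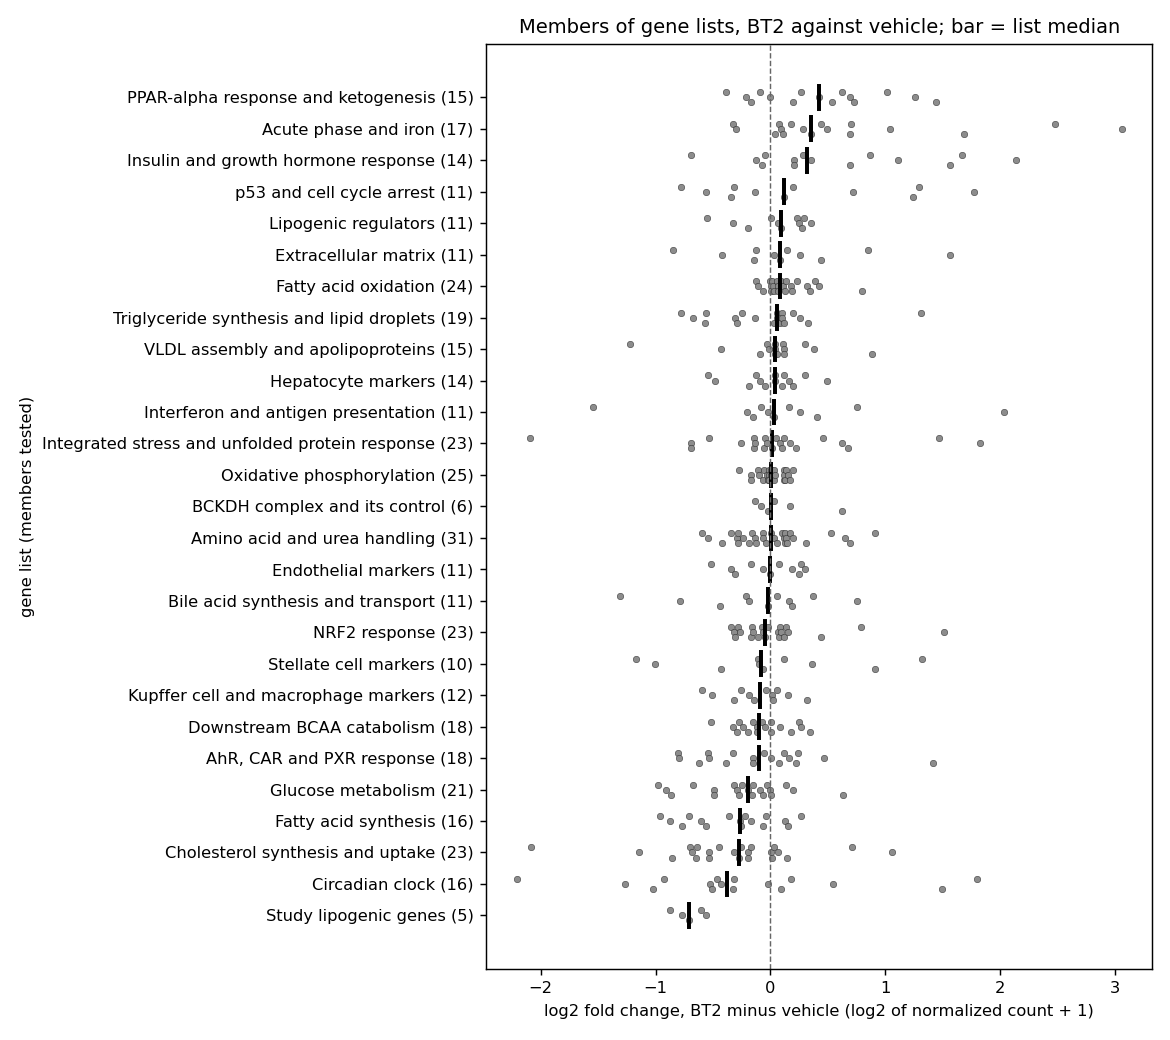
Log2 fold change (BT2 minus vehicle) of each tested member of the gene lists with at least 5 tested members, 1 point per gene, with the list median as a black bar and the number of tested members in brackets. The lipogenic genes named by the study lay lowest (median -0.71), and the PPAR-alpha (median 0.42) and acute phase lists (median 0.35) highest.

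The mRNAs of the BCKDH complex itself, whose kinase is the target of BT2, showed no detectable difference between the groups. All 6 genes of the complex and its control were tested, 3 were higher and 3 lower, none reached an unadjusted p of 0.05, and their median log2 fold change was 0.0067. Bckdk, the kinase, stood at 127, 112, 79.98 and 98.7 normalized counts in BT2 replicates 1 to 4 and at 134, 121, 120.2 and 83.3 in vehicle replicates 1 to 4. The groups overlapped, with a log2 fold change of -0.13 ± 0.20 (SE) and a 95% confidence interval of -0.58 to 0.32. Bckdha and Bckdhb, the catalytic subunits, had log2 fold changes of -0.021 ± 0.12 and 0.034 ± 0.14 (SE). The 95% confidence intervals were -0.28 to 0.24 for Bckdha, -0.27 to 0.34 for Bckdhb, -0.35 to 0.19 for Dld, the shared dihydrolipoamide dehydrogenase, and -0.22 to 0.57 for Dbt, the transacylase core. Ppm1k, the phosphatase, had the widest interval of the 6, -0.27 to 1.52. Its values were 42.1, 24.6, 29.9 and 34.7 with BT2 and 30.2, 35.6, 17.7 and 9.08 with vehicle, and the lowest of them, in vehicle replicate 4, is worth less than 1 whole read. The log2 fold change of Ppm1k was 0.62, and it was 0.26 without vehicle replicate 4 and 0.020 without the 3 shallow libraries.

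Further down the BCAA pathway, 18 of 21 listed genes were tested, 7 were higher and 11 lower, and the median log2 fold change was -0.10. Abat, the transaminase that removes the amino group of GABA and of an intermediate of valine, held 206, 259, 222 and 266 normalized counts with BT2 and 285, 290.1, 316 and 299 with vehicle. Every BT2 library was below every vehicle library (log2 fold change -0.33 ± 0.13 SE, exact permutation p = 0.0286).

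The tested lipogenic genes had lower counts with BT2, although none passed the adjusted test. Of the 6 genes of lipogenesis that the study named, 5 were tested, and all 5 had lower means with BT2 and an unadjusted p under 0.05, where 2% of all genes did so. For 4 of the 5 the groups did not overlap, against 1.44% of all genes. The study chose these genes on mouse livers of the same series and displayed them in these rats, so their direction is not independent evidence. Their median log2 fold change was -0.71, beside 0.0061 for all genes, and it was -0.79 without the 3 libraries under 1 M reads, an alternative added after seeing the data.

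Fasn encodes fatty acid synthase, which builds palmitate. It held 4349, 3193, 3956 and 3176 normalized counts in BT2 replicates 1 to 4 and 5373, 6398, 7867 and 7238 in vehicle replicates 1 to 4. The highest BT2 value lay below the lowest vehicle value, and the means were 3669 ± 581 (SD, n = 4) and 6719 ± 1080.3 (SD, n = 4). The log2 fold change was -0.87 ± 0.15 (SE, limma adjusted p = 0.51), or 0.546 times the vehicle level, and the difference in mean log2 value was -0.65 within the first flow cell and -1.09 within the second.

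Acly, the gene of ATP citrate lyase, held 3096, 3038, 1998 and 3589.8 normalized counts with BT2 and 3913, 3637, 5457 and 4126 with vehicle. The groups were separate but close, with BT2 replicate 4 just under vehicle replicate 2, and the log2 fold change was -0.56 ± 0.19 (SE). The difference was -0.30 within the first flow cell and -0.83 within the second (log2). Acss2, which makes acetyl-CoA from acetate, had 189, 219, 109.8 and 114 with BT2 and 256, 218, 308 and 258 with vehicle. Here BT2 replicate 2 and vehicle replicate 2 overlapped by less than 1 normalized count, and the difference came mostly from the second flow cell (-1.32 against -0.22 in the first, log2).

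Pklr encodes the liver pyruvate kinase, which feeds glycolytic carbon into acetyl-CoA. Its values were 1488, 1099.8, 864 and 1239 with BT2 and 1858, 2097, 1696 and 1889 with vehicle. All BT2 libraries were lower, with -0.63 and -0.79 (log2) within the flow cells and -0.71 ± 0.16 (SE) overall. Thrsp, a small protein that goes with active fat synthesis, had 5832, 5760.1, 5792 and 4906 with BT2 and 6698, 7250.3, 10807 and 9685 with vehicle. The groups did not overlap, and the 2 highest values were vehicle replicates 3 and 4 (log2 fold change -0.60 ± 0.16 SE). Within the first flow cell the difference was -0.27, and within the second -0.94 (log2). Elovl6, an elongase, had a mean below 10 normalized counts and was not tested.

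**Figure D3:**
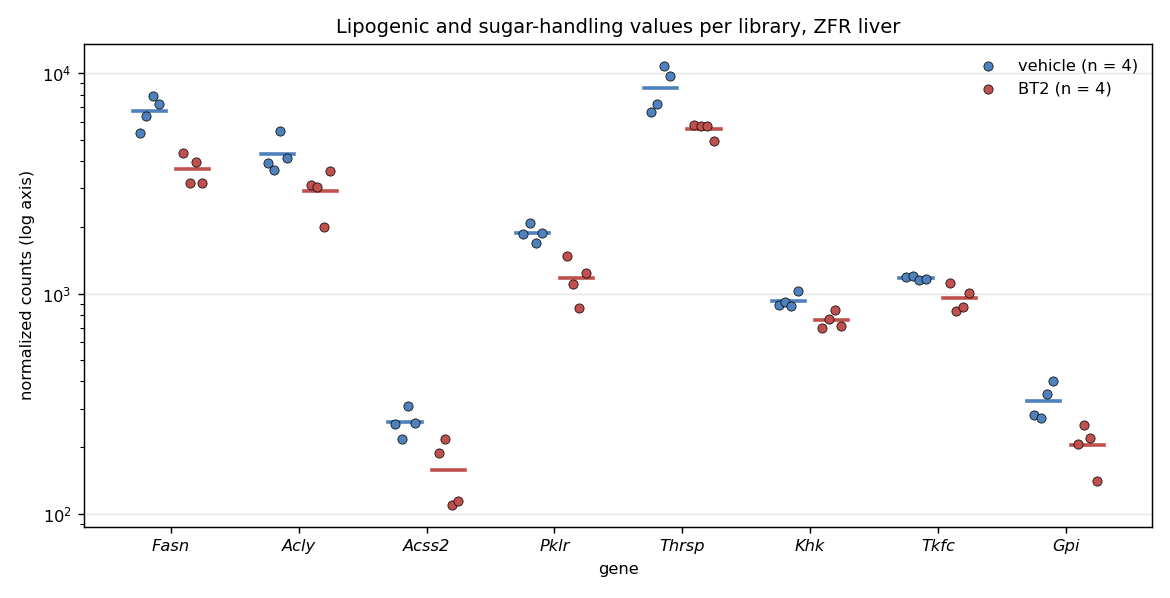
Normalized counts (log axis) of 8 genes in each of the 4 vehicle (blue) and 4 BT2 (red) libraries, with the group mean as a bar. The BT2 points lie below all vehicle points for each gene except Acss2, where 1 BT2 library reaches the lowest vehicle library.

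On the wider fatty acid synthesis list, which contains these 5 tested genes, 13 of 16 tested members were lower and 3 higher, with a median log2 fold change of -0.26. Without the 3 shallow libraries 15 of the 16 were lower, with a median of -0.45. Beyond the 5, Mid1ip1, a partner of acetyl-CoA carboxylase, was the only member with an unadjusted p under 0.05 and was named after its values were seen (274, 251, 596 and 196 with BT2 and 348, 707, 558 and 836 with vehicle). BT2 replicate 3 overlapped the vehicle group there. Scd, the stearoyl-CoA desaturase, held 18166, 12416, 9869 and 15570.4 with BT2 and 14759.7, 15734, 20041 and 20030.3 with vehicle and was also picked after its values were seen. Its groups overlapped, and the log2 fold change was -0.36 ± 0.19 (SE). The regulators of lipogenesis had no direction as a group that held across the fits. With all libraries 8 of 11 tested were higher, none with an unadjusted p under 0.05, and the median was 0.091. With precision weights 3 of the 11 were higher, with a median of -0.025. Without the 3 shallow libraries 2 of the 11 were higher, with a median of -0.12. Srebf1, the transcription factor that insulin uses to drive lipogenic genes, held 1392, 644, 1913 and 1377 with BT2 and 1737, 1576, 1934 and 2056 with vehicle, and BT2 replicates 1, 2 and 4 were below the vehicle range with replicate 3 inside it (log2 fold change -0.55 ± 0.27 SE, exact permutation p = 0.0857). Without BT2 replicate 2 the log2 fold change of Srebf1 was -0.24.

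Genes of cholesterol synthesis and uptake, which sterol-sensing SREBP2 is known to control, were mostly lower with BT2. All 23 listed genes were tested, 16 were lower and 7 higher, and the median log2 fold change was -0.27. With vehicle replicate 4 left out, 21 of 23 were lower and the median was -0.42. An unadjusted p under 0.05 was reached by 7 members, all lower (2% of all genes), and the groups were separate for 1 of them. Those named here were chosen after their values were seen. Fdft1, the squalene synthase at the branch to sterols, held 196, 279, 250.4 and 250.2 with BT2 and 317, 263, 407 and 351 with vehicle, with 1 BT2 library inside the vehicle range. Nsdhl, Dhcr7, Hsd17b7 and Acat2, 4 further enzymes of sterol synthesis, had log2 fold changes of -0.32 ± 0.14, -0.53 ± 0.24, -0.70 ± 0.31 and -2.09 ± 0.89 (SE). Each overlapped between the groups. Acat2 was a low gene, with means of 12.5 normalized counts with BT2 and 35.5 with vehicle, so its value is imprecise.

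Most genes of the glucose metabolism list had lower means with BT2. Of 21 tested genes 17 were lower and 4 higher, and the median log2 fold change was -0.20. The groups were separate for 4 members, all lower, against 1.44% of all genes. An unadjusted p under 0.05 was reached by 7 lower members and 1 higher (2% and 1.95% of all genes). The higher one, Gckr, was named after its values were seen and overlapped between the groups (log2 fold change 0.63 ± 0.28 SE). Gpi, the glucose phosphate isomerase, held 206, 254, 221 and 141 with BT2 and 279.6, 273, 348 and 403 with vehicle (log2 fold change -0.68 ± 0.20 SE, exact permutation p = 0.0286). All 4 BT2 libraries were below the vehicle libraries, with a larger gap on the second flow cell (-1.08 against -0.27, log2), and without the 3 shallow libraries the log2 fold change of Gpi was -0.33. Khk and Tkfc, enzymes of fructose breakdown that also had separate groups, were named after their values were seen. Khk, ketohexokinase, held 697, 768, 845 and 712 with BT2 and 885, 912, 876 and 1022 with vehicle. Tkfc, which phosphorylates glyceraldehyde, held 1121, 832, 866 and 1001 with BT2 and 1193, 1206, 1148 and 1167 with vehicle. The differences in both were small, at -0.29 ± 0.11 and -0.31 ± 0.12 on the log2 scale (SE), but no BT2 library reached the vehicle range.

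In contrast to lipogenesis, most FAO genes had slightly higher means with BT2. Of the 5 FAO genes named by the study 4 were tested, 3 were higher, none had an unadjusted p under 0.05, and the median log2 fold change was 0.079. Without the 3 shallow libraries, and also with precision weights, 2 of the 4 were higher. Fabp1, the liver fatty acid binding protein, held 4886, 5157, 8246 and 5721 with BT2 and 5259, 4686, 4748 and 3149 with vehicle. The groups overlapped, and BT2 replicate 3 was the highest (log2 fold change 0.42 ± 0.19 SE, exact permutation p = 0.0857), and the value was 0.26 without BT2 replicate 3 and also without vehicle replicate 4. Cpt1a, which carries long-chain acyl groups into mitochondria, held 804, 910.4, 261 and 413 with BT2 and 500.2, 721, 489.5 and 423 with vehicle. It was high in BT2 replicates 1 and 2 and low in 3 and 4, and the differences within the flow cells were 0.51 and -0.47 (log2). Acadl, the long-chain acyl-CoA dehydrogenase, had a log2 fold change of -0.0023 ± 0.11 (SE), with a 95% confidence interval of -0.24 to 0.24. Fabp2 was below the minimum mean and was not tested.

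Of 24 tested members of the wider FAO list 20 were higher and 4 lower, where 50.7% of all genes were higher, and the median log2 fold change was 0.081. Without vehicle replicate 4 the split was 16 higher and 8 lower, with a median of 0.073. With precision weights it was 17 higher and 7 lower, with a median of 0.035. Without the shallow libraries 19 were higher and 5 lower, with a median of 0.091. Eci1, an isomerase that prepares unsaturated chains for mitochondrial oxidation, held 238, 226, 301 and 163 with BT2 and 158, 150.0, 145 and 82.6 with vehicle, with no overlap (log2 fold change 0.80 ± 0.24 SE, exact permutation p = 0.0286). Hadha, part of the mitochondrial trifunctional protein, was the other member with separate groups and was named after its values were seen (701, 591, 582 and 669 with BT2 and 537, 561, 511 and 403 with vehicle, log2 fold change 0.35 ± 0.14 SE). In both genes vehicle replicate 4 was the lowest library.

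PPAR-alpha is the nuclear receptor that switches on fat oxidation in the fasting liver. Of 15 tested genes of its response and of ketogenesis 10 were higher, and the median log2 fold change was 0.42. The median was 0.18 without vehicle replicate 4 and 0.28, with 13 of 15 higher, without the 3 shallow libraries. Cyp4a1, a fatty acid ω-hydroxylase and a classical PPAR-alpha target in rats, held 563, 445, 382 and 319.6 normalized counts with BT2 and 185, 206, 161 and 90.1 with vehicle. Every BT2 library was above every vehicle library, and the means were 427 ± 104 (SD, n = 4) and 161 ± 50.5 (SD, n = 4). The log2 fold change was 1.44 ± 0.26 (SE, limma adjusted p = 0.545), with 1.35 and 1.53 within the flow cells. Cyp4a1 has close paralogs among which reads could be split, so its level is uncertain. Acot2, a mitochondrial acyl-CoA thioesterase named after its values were seen, held 74.7, 94.8, 73.6 and 125 with BT2 and 55.4, 59.8, 45.8 and 61.9 with vehicle, again without overlap (log2 fold change 0.69 ± 0.21 SE). Pdk4, which blocks pyruvate oxidation, was also chosen after its values were seen and was low in BT2 replicate 3 and vehicle replicates 3 and 4, with 317, 429.8, 57.6 and 294 with BT2 and 194, 207, 54.1 and 30.97 with vehicle.

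**Figure D4:**
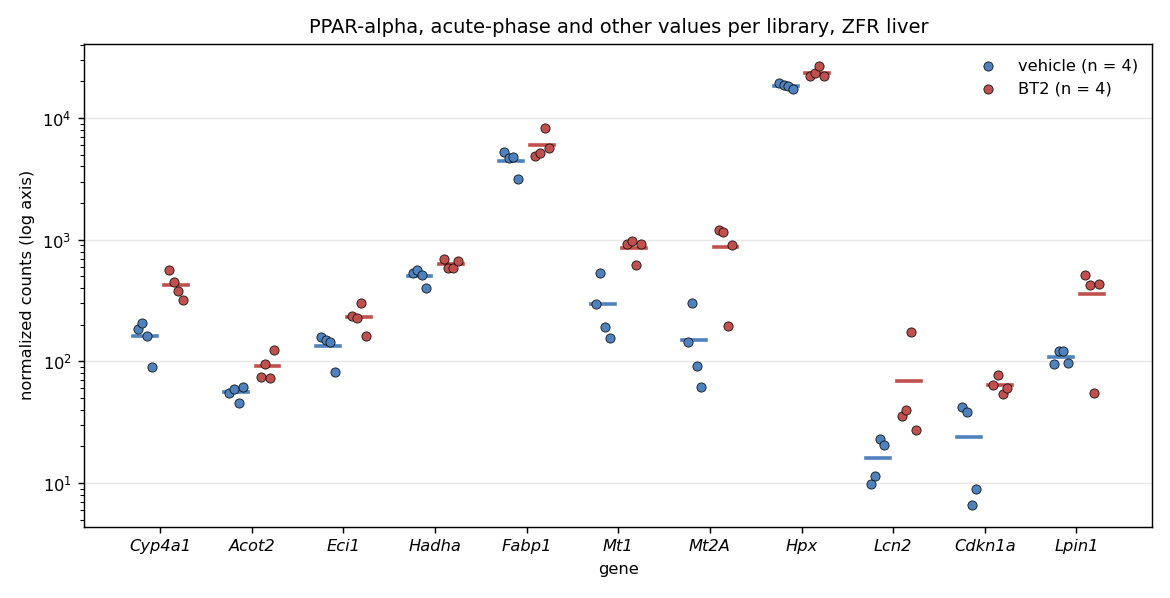
Normalized counts (log axis) of 11 genes in each of the 4 vehicle (blue) and 4 BT2 (red) libraries, with the group mean as a bar. The BT2 points lie above all vehicle points for Cyp4a1, Acot2, Eci1, Hadha, Mt1, Hpx, Lcn2 and Cdkn1a and overlap them for Fabp1, Mt2A and Lpin1.

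Genes of TG synthesis and storage showed no common direction. Of 19 tested, 11 were higher and 8 lower, with a median of 0.057, and without vehicle replicate 4 the split was 6 higher and 13 lower. Lpin1, the phosphatidate phosphatase that makes diacylglycerol and also co-activates PPAR-alpha, held 512, 423, 55.4 and 434 with BT2 and 94.6, 121, 122 and 96.2 with vehicle. In BT2 replicates 1, 2 and 4 it was more than 3 times the highest vehicle value, and in BT2 replicate 3 it was the lowest of all 8 libraries. The log2 fold change was 1.31 ± 0.58 (SE, exact permutation p = 0.143). Without BT2 replicate 3 it was 2.07, with a limma adjusted p of 0.00192, the only 1 of 17 alternative fits in which Lpin1 passed. Without the 3 shallow libraries, which keeps BT2 replicate 3, it was 0.45.

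Of 15 tested genes of very low density lipoprotein (VLDL) assembly and apolipoproteins 10 were higher and 5 lower, with a median of 0.044. Apoa4, an apolipoprotein that fatty livers are known to make in excess, held 2612, 2486, 2829 and 2627 with BT2 and 3398, 3851, 3121 and 3872 with vehicle. The groups were tight and separate (log2 fold change -0.43 ± 0.11 SE, exact permutation p = 0.0286). Angptl8 and Angptl4, inhibitors of lipoprotein lipase that feeding and fasting respectively are known to induce, were named after their values were seen. Angptl8 held 335, 342, 624 and 207 with BT2 and 418, 1420.2, 666 and 1125 with vehicle. Angptl4 held 419.9, 371, 210.2 and 348 with BT2 and 139, 396, 106 and 165 with vehicle. The means of the pair differed in opposite directions, at -1.23 ± 0.39 and 0.89 ± 0.36 (log2, SE), and both overlapped between the groups.

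Among 11 tested genes of bile acid synthesis and transport 5 were higher and 6 lower. Nr1h4, the bile acid receptor FXR, held 88.9, 126, 119 and 109 with BT2 and 140.2, 177, 138 and 145 with vehicle (log2 fold change -0.44 ± 0.17 SE, exact permutation p = 0.0286). The groups did not overlap, although vehicle replicate 3 and BT2 replicate 2 were close. Cyp7a1, the rate-limiting enzyme of bile acid synthesis, was added after its values were seen, with 67.6, 172, 54.9 and 48.9 with BT2 and 80.4, 133, 266 and 423 with vehicle, and its groups overlapped.

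On the acute phase and iron list 8 of 17 tested members had an unadjusted p under 0.05, all of them higher with BT2, where 1.95% of all genes were. In all, 15 of 17 were higher with BT2 and the median log2 fold change was 0.35, and it was 0.39 without the 3 shallow libraries. Mt2A, a zinc-binding metallothionein, held 1213, 1151, 197 and 897 with BT2 and 144, 305, 91.7 and 61.9 with vehicle. It was high in BT2 replicates 1, 2 and 4, while BT2 replicate 3 lay inside the vehicle range (log2 fold change 2.48 ± 0.60 SE, exact permutation p = 0.0571, and 1.58 without the 3 shallow libraries). Mt1, its close relative, with which it could share reads, held 929, 977, 616 and 930.0 with BT2 and 294, 536, 193 and 155 with vehicle. Here no BT2 library overlapped the vehicle group (log2 fold change 1.69 ± 0.33 SE, limma adjusted p = 0.606). Without vehicle replicate 2, which held the highest vehicle value, the limma adjusted p was 0.0394. That was the only 1 of 17 alternative fits in which Mt1 passed.

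The other 7 acute phase genes with an unadjusted p under 0.05 were named after their values were seen. The 3 fibrinogen chains, Fga, Fgb and Fgg, had log2 fold changes of 0.69 ± 0.27, 0.49 ± 0.20 and 0.70 ± 0.22 (SE). In each of them BT2 replicates 1, 2 and 4 were above all vehicle libraries, for example 13416, 14332, 7709 and 9501 with BT2 and 8241, 8095, 5373 and 5596 with vehicle for Fgg, and BT2 replicate 3 overlapped the vehicle group. Hpx, the haem carrier hemopexin, held 22059.5, 23559.6, 26829 and 22037 with BT2 and 19600.4, 18714, 18242 and 17346 with vehicle, a small difference with no overlap (log2 fold change 0.35 ± 0.10 SE). Lcn2, which binds bacterial iron carriers, held 35.6, 40.05, 175 and 27.2 with BT2 and 9.75, 11.4, 22.9 and 20.6 with vehicle. Its groups were also separate, with BT2 replicate 3 far above the rest. BT2 replicate 4 lay only just above vehicle replicate 3. The value in vehicle replicate 4 is below that of 3 reads in that library (31.0 normalized counts), so the separation is imprecise. Lbp, the lipopolysaccharide binding protein, and Hp, haptoglobin, had log2 fold changes of 1.04 ± 0.38 and 0.29 ± 0.13 (SE) and overlapped.

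A2m, the rat acute phase protease inhibitor, was chosen after its values were seen and had the largest positive log2 fold change of all tested genes, 3.06. It held 309.6, 191, 311 and 0 with BT2 and 10.4, 19.3, 15.6 and 0 with vehicle. BT2 replicates 1, 2 and 3 were far above all vehicle libraries, and BT2 replicate 4 was at 0, which allows up to 16.3 normalized counts (3 reads). The SE was 1.70, and the gene did not pass the test. Without the 3 shallow libraries its log2 fold change was 3.97, with a limma adjusted p of 0.0354. That fit was added after seeing the data. It leaves out BT2 replicates 1 and 4 and vehicle replicate 4, and so both libraries in which A2m was at 0.

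Stress and cell cycle genes gave a mixed picture. Hmox1, haem oxygenase, was the only one of 23 tested NRF2 genes with an unadjusted p under 0.05, and it held 214, 415, 102 and 163 with BT2 and 98.1, 144, 48.6 and 30.97 with vehicle, with overlap between BT2 replicate 3 and vehicle replicate 2 (log2 fold change 1.51 ± 0.501 SE). Cdkn1a, the cell cycle inhibitor p21, held 64.4, 77.02, 54.1 and 60.9 with BT2 and 42.05, 38.7, 6.63 and 8.89 with vehicle. The groups were separate (exact permutation p = 0.0286), and the difference was 0.79 on the first flow cell and 2.75 on the second (log2), where vehicle replicates 3 and 4 held few reads. The median of the 11 tested p53 genes was 0.12, and it turned to -0.15 without vehicle replicate 4 and to -0.13 with precision weights. Atf3, an immediate stress factor, held 10.8, 25.6, 5.40 and 5.48 with BT2 and 36.3, 286, 8.31 and 41.6 with vehicle, so that the vehicle mean rests on vehicle replicate 2. The 23 tested genes of the integrated stress and unfolded protein response had a median of 0.017.

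The injections were given at a fixed time of day, so genes of the circadian clock were also examined. Of 16 tested clock genes 11 were lower and 5 higher, with a median log2 fold change of -0.38. Dbp, a clock output factor that swings widely over the day, held 62.8, 73.2, 34.1 and 7.60 with BT2 and 55.2, 117, 316 and 311 with vehicle. The difference was -0.24 on the first flow cell and -4.18 on the second (log2), and over all libraries it was -2.21 ± 0.71 (SE, exact permutation p = 0.0857), or -1.33 without the 3 shallow libraries. Arntl, which encodes BMAL1 and peaks opposite to Dbp, was named after its values were seen. It held 64.1, 42.7, 58.9 and 48.9 with BT2 and 37.8, 27.98, 2.75 and 30.97 with vehicle, with no overlap, and vehicle replicate 3 was the lowest by far. Whether time of collection differed between the libraries was not tested, because the sources used here do not give it for each rat.

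In the remaining metabolic lists the groups were close. Kynu, kynureninase of tryptophan breakdown, had the lowest p of the 31 tested genes of amino acid and urea handling (median 0.0032). It held 413, 387, 395 and 408 with BT2 and 371, 364, 199.9 and 155 with vehicle, and the spread was mostly on the vehicle side. The log2 fold change was 0.65 ± 0.26 (SE), with 0.12 within the first flow cell and 1.19 within the second. For Kynu it was 0.42 without vehicle replicate 4 and 0.38 without the 3 shallow libraries. Oxidative phosphorylation had a narrow range: 25 genes were tested, their log2 fold changes ran from -0.27 to 0.20, and the median was 0.0074. Sdhb, a subunit of succinate dehydrogenase, had the lowest p there, with 221, 267, 297 and 245 with BT2 and 295, 309, 311 and 320.1 with vehicle. Alas1, the first enzyme of haem synthesis, was the gene with the lowest p among 18 tested AhR, CAR and PXR targets (median -0.10). Its values were 198, 247, 279 and 207 with BT2 and 255, 362, 429.9 and 400.2 with vehicle (log2 fold change -0.62 ± 0.19 SE, and -0.38 without the 3 shallow libraries), and they overlapped at the lowest vehicle library.

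Signalling genes with few reads had wide intervals. Socs3, a cytokine-induced brake on insulin and growth hormone signalling, held 28.5, 17.4, 4.02 and 87.02 with BT2 and 7.92, 6.72, 8.25 and 0 with vehicle. The list of insulin and growth hormone responses had 10 of 14 tested members higher and a median of 0.32, and the median was 0.065 over 13 tested members without the 3 shallow libraries. Irf1 had the lowest p among the 11 tested interferon genes (median 0.029) with a log2 fold change of 2.03 ± 0.95 (SE). Col4a2 had it among the 11 tested matrix genes (median 0.087) with 1.56 ± 0.96 (SE). Ccnd1 had it of the 2 tested proliferation genes, with 0.96 ± 1.03 (SE). Without vehicle replicate 4 the log2 fold changes were 0.86 for Irf1, 0.37 for Col4a2 and -0.29 for Ccnd1, and without the 3 shallow libraries they were 0.49, 0.011 and -0.82. All 4 of these genes were at 0 in vehicle replicate 4 and above 0 in the other 7 libraries. A count of 0 in that library allows up to 31.0 normalized counts (3 reads, counting error only).

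The summed markers of cell types other than hepatocytes overlapped between the groups. The summed level of the 13 listed Kupffer cell and macrophage markers was 778 to 1024 normalized counts with BT2 and 814 to 982 with vehicle. For the 12 stellate cell markers it was 393 to 491 and 409 to 565, and for the 11 endothelial markers 581 to 682 and 508 to 714. The 16 leukocyte markers summed to 32.6 to 64.1 with BT2 and 39.03 to 50.1 with vehicle, and Cd3d and Klrb1 were at 0 in all 8 libraries. For cholangiocytes the sums were 122 to 236 and 151 to 156, for red blood cells 463 to 858 and 343 to 863, and for adipocytes 18.01 to 71.9 and 40.3 to 50.1. None of the 11 listed pancreatic acinar markers reached the minimum mean. In bulk liver RNA, fewer cells of a type and less RNA per cell cannot be told apart.

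Single markers with the lowest p of their lists were as follows. Cebpa, a hepatocyte transcription factor, held 722, 772, 625 and 783 with BT2 and 812, 1187, 837 and 1301 with vehicle, with no overlap (log2 fold change -0.49 ± 0.17 SE). Lrat, which stores retinol in stellate cells, held 6.02, 18.1, 12.5 and 22.99 with BT2 and 33.4, 32.6, 31.5 and 17.5 with vehicle. Lyve1, a hyaluronan receptor of the liver endothelium, held 121, 143, 119 and 119.6 with BT2 and 109.7, 118, 102 and 92.9 with vehicle, and its groups were just separate. Epcam of cholangiocytes, Marco of macrophages, Ptprc of leukocytes, Alas2 of red blood cells and Cfd of adipocytes had log2 fold changes of 0.65 ± 0.33, -0.51 ± 0.34, 1.25 ± 0.85, 1.06 ± 0.89 and -0.55 ± 0.48 (SE). All 5 overlapped between the groups. Single libraries moved these values: Epcam was at 0.43 without BT2 replicate 2, Marco at -0.24 without BT2 replicate 4 and -0.82 without BT2 replicate 1, Ptprc at 0.35 and Alas2 at 0.11 without vehicle replicate 4, and Cfd at -0.087 without BT2 replicate 1 and -0.98 without BT2 replicate 3.

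Across all tested genes, genes were also named from the 8 with the lowest p in each direction, among those with separate groups and a mean of at least 50 normalized counts. Some of them have been described above. Ces1d, a carboxylesterase that hydrolyses stored TG, held 140.4, 91.6, 59.3 and 74.9 with BT2 and 160.4, 354, 271 and 196 with vehicle (log2 fold change -1.42 ± 0.30 SE). Carboxylesterases have close copies, so reads could be split among them. Bcar1, an adaptor protein of focal adhesions, held 179.8, 196, 183 and 199 with BT2 and 336, 280.1, 289 and 297 with vehicle. Both groups had little spread, and the log2 fold change was -0.66 ± 0.12 (SE, limma adjusted p = 0.564). Osbpl11, a lipid transfer protein, held 92.5, 121, 81.7 and 136 with BT2 and 166, 184, 258 and 196 with vehicle. Tmem41b, a membrane protein of the endoplasmic reticulum, held 35.6, 56.1, 57.6 and 48.9 with BT2 and 95.6, 79.3, 114 and 92.9 with vehicle. RGD1309534, an uncharacterised locus, completed the lower genes with a log2 fold change of -0.85 ± 0.21 (SE).

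On the higher side, Sqrdl, which oxidises hydrogen sulfide in mitochondria, held 132, 162, 154 and 127 with BT2 and 51.2, 119, 65.3 and 81.2 with vehicle. Btg1, a growth-restraining co-regulator, held 441, 547, 414 and 392 with BT2 and 353, 273, 263 and 227 with vehicle. Midn, a nuclear protein that guides others to the proteasome, held 125, 93.4, 61.6 and 131 with BT2 and 42.03, 52.6, 31.2 and 41.3 with vehicle. For these 3 the log2 fold changes were 0.92 ± 0.24, 0.69 ± 0.16 and 1.24 ± 0.27 (SE), and no vehicle library reached a BT2 library. Hacd2, a dehydratase of fatty acid elongation, held 71.2, 66.7, 66.9 and 59.8 with BT2 and 41.4, 43.9, 43.1 and 41.3 with vehicle, with little spread in either group. Il1rn, the interleukin-1 receptor antagonist, held 96.1, 97.4, 62.9 and 87.02 with BT2 and 53.6, 42.5, 30.3 and 10.3 with vehicle. AABR07000398.1, a clone-based gene model, held 2203, 2044, 3886 and 2034 with BT2 and 1156, 1483, 1310.0 and 1879 with vehicle. The log2 fold changes of these 3 were 0.63 ± 0.17, 1.499 ± 0.43 and 0.77 ± 0.22 (SE), and in Il1rn the vehicle replicate 4 value corresponds to 1 read. Without the 3 shallow libraries the log2 fold change of Il1rn was 0.92.

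The same genes were set beside the comparison of 5.5 month-old ZFR with Zucker Lean rats (ZLR), 4 libraries each and as shallow as 0.188 M reads, which shares no library with the BT2 table and was normalized on its own. There 4.25% of 8633 tested genes had an adjusted p under 0.05. All 5 tested lipogenic genes rose in ZFR: Fasn by 2.66 ± 0.15, Acly by 2.01 ± 0.13, Thrsp by 1.77 ± 0.20, Acss2 by 1.53 ± 0.16 and Pklr by 1.14 ± 0.18 on the log2 scale (SE), with limma adjusted p from 1.45e-05 to 0.00692. The BT2 differences in these genes, -0.87 ± 0.15, -0.56 ± 0.19, -0.60 ± 0.16, -0.77 ± 0.23 and -0.71 ± 0.16, were opposite in sign and smaller in size. Whether they differ between the comparisons was not tested, as age and normalization differ. Apoa4 was also higher in ZFR (log2 fold change 0.75 ± 0.16 SE, limma adjusted p = 0.0317) and lower with BT2. Kynu fell in ZFR (-1.27 ± 0.19, limma adjusted p = 0.00527), while its mean with BT2 was higher, mostly on the second flow cell. Ces1d fell in ZFR (-2.40 ± 0.36, adjusted p = 0.005), the same direction as its mean with BT2, and RGD1309534 rose in ZFR (1.37 ± 0.19, adjusted p = 0.0033). Cyp4a1 did not pass in ZFR, with 0.25 ± 0.23 (SE, adjusted p = 0.6).

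**Figure D5:**
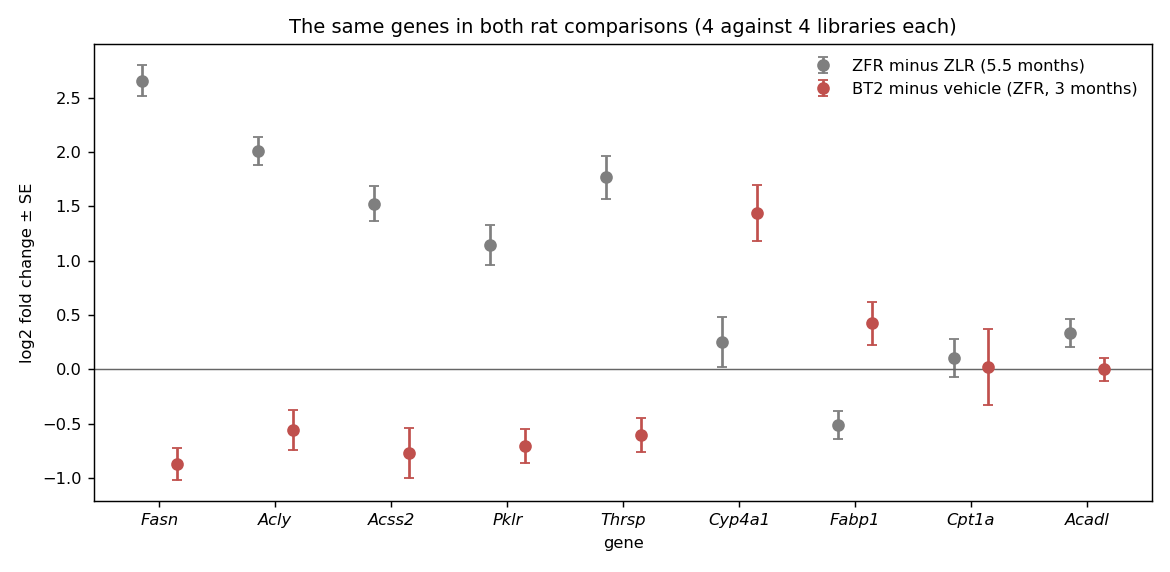
Log2 fold change ± SE of 9 genes in ZFR against ZLR (grey, 5.5 months) and in BT2 against vehicle within ZFR (red, 3 months), 4 against 4 libraries in each comparison. The 5 lipogenic genes lie above 0 in ZFR and below 0 with BT2, and of the FAO genes Cpt1a lies within 1 SE of 0 in both, while Acadl lies above 0 in ZFR and at 0 with BT2.

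None of the FAO genes named by the study passed in the ZFR comparison. Fabp1 was lower in ZFR (-0.51 ± 0.13, adjusted p = 0.0579), and Acadl and Cpt1a had log2 fold changes of 0.33 ± 0.13 and 0.10 ± 0.17 (SE). In the WT/Floxed mice of the series, 8 livers given LNA29, an inhibitor of the microRNA miR-29, were compared with 5 given saline, and 1.37% of 15811 tested genes had an adjusted p under 0.05. The 5 lipogenic genes had log2 fold changes of -0.68 ± 0.20 for Fasn, -0.78 ± 0.21 for Acly, -1.63 ± 0.38 for Thrsp, -0.84 ± 0.27 for Acss2 and -0.51 ± 0.20 for Pklr (SE), with limma adjusted p between 0.0509 and 0.27. All 6 genes of the study's list were tested there, and Elovl6 was the 1 that passed, lower with LNA29. The study chose the list in these mice. The FAO genes Fabp1, Cpt1a and Acadl were at 0.17 ± 0.12, 0.13 ± 0.22 and -0.057 ± 0.079 there (SE).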

How the data were processed

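RNA-seq of poly(A)-selected liver RNA was used, 4 BT2 and 4 vehicle libraries. The deposited values are a signal: the authors aligned reads with STAR (rn6 is the rat build in the submitters' notes), estimated gene counts with Salmon and divided them by DESeq2 size factors, with a separate normalization for every table. Tool names come from the submitters' notes and the study's methods. Whole reads were not recovered, since 75.9% to 83.1% of low values per library (up to 20 reads) were multiples of 1 read's value to within 0.02 reads, so no count model was run. Of 32750 entries, 201 without a name (0.0394% of counts) and 4523 with a repeated name (2.17%) were left out, and 0 columns were left unmatched. Because the value of 1 read differs, low genes in shallow libraries are measured less precisely than deep ones.

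Differences were tested with limma 3.58.1 (lmFit, eBayes with a trend) in R 4.3.3, with the package data.table (1.17.8) for reading, on log2(normalized count + 1), a scale that shrinks fold changes of low genes, while a single library at 0 can enlarge them. The minimum mean for testing was 10 normalized counts, and Benjamini-Hochberg adjustment ran over all 8405 genes that reached it. Flow-cell values are differences of mean log2 values within a flow cell. The fit was tried on simulated data with planted changes larger than most differences described here. It therefore does not show whether differences of the size seen here would be called.

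Members and the 34 gene lists were chosen with earlier results of these data known. Genes were named by rule: the BCKDH, lipogenic and FAO members; the member with the lowest p of each other list; and, per direction, the 8 lowest p-values among separate groups averaging 50 or more. Others are marked. Some genes that the rule names are not reported here, and they stay in all counts and medians. The labels number the rats separately in each group, and it is assumed that each library is 1 rat; if not, p-values measure only the spread between libraries. Alternatives were pseudocount, minimum mean, TMM scaling, weights, flow cell, replicate block and left-out libraries.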

Additional observations from a re-analysis of the deposited data

Results flagged for a closer look

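Single libraries were compared with the other 3 of their group for each of the 54 named genes in both groups, that is in 108 groups of 4 values on the log2 scale, by the gap to the nearest library as a share of the group's range. In 11 groups this share was above Dixon's 95% critical value for 4 samples, which chance passes in about 1 group in 20. In vehicle replicate 4, the shallowest library, 5 genes lay below the other 3 vehicle libraries: Eci1 at 82.6 normalized counts, Lrat at 17.5, and Socs3, Col4a2 and Ptprc, all at 0. In BT2 replicate 3, Lpin1 at 55.4, Mt2A at 196.8 and Mt1 at 616 lay below the other 3 BT2 libraries, and AABR07000398.1 at 3886 lay above them. Thrsp was low in BT2 replicate 4 at 4906, and Lyve1 was high in BT2 replicate 2 at 143. No cause was tested.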

How the results depend on the processing

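The counts of genes, 4 list medians and 54 named genes were recomputed under 17 alternatives, 8 of which leave out 1 library and 1 of which, leaving out the 3 libraries under 1 M estimated reads, was chosen after seeing the data. The planned fit without libraries under 5 M reads was not run, since only 1 library reaches that depth. The number of genes with an adjusted p under 0.05, which was 0, became 1 with a pseudocount of 10, with a minimum mean of 50, with sample quality weights and with precision weights, each time 1 lower gene. It stayed 0 without a minimum mean, with TMM scaling and with the flow cell as a covariate. Leaving out 1 library gave 0 to 2 genes, 0 to 1 higher and 0 to 1 lower: Lpin1 (2.07) and 1 lower gene without BT2 replicate 3, and Mt1 (2.04) without vehicle replicate 2. Without the 3 shallow libraries 2 genes passed, 1 higher (A2m) and 1 lower (Hmgn5, at 0 in both remaining BT2 libraries). The replicate numbers do not pair the rats by any label, and the deviations of same-numbered libraries correlated at -0.017, 0.154, 0.050 and 0.024; with the replicate block 0 genes passed, 0 higher and 0 lower, 340 had an unadjusted p under 0.05, and the block changed no other call.

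The medians of 4 lists moved by less than the spread between libraries under the 17 alternatives. Other lists were not judged against that spread, and several turned or moved, not all of them stated above. Without the 3 shallow libraries 20 of 25 oxidative phosphorylation genes were higher (median 0.11). For NRF2 genes it was 15 of 23, beside 10 with all libraries. With precision weights the median was -0.048 for the matrix list and -0.25 for the endothelial markers. Leaving out 1 library gave -0.83 to -0.62 for the lipogenic genes of the study, -0.42 to -0.14 for fatty acid synthesis, -0.42 to -0.15 for cholesterol synthesis and uptake and -0.022 to 0.055 for the BCKDH complex. Of the named genes, 12 averaged below the minimum mean under 1 or 2 alternatives and have no value there, and 46 of 54 kept their direction wherever they had one. Leaving out 1 library or the shallow libraries moved 22 of them by over 1.5 times (among those with a log2 fold change above 0.25 in size). The log2 fold changes that turned were, with sample quality weights, Bckdha 0.018, Bckdhb -0.024, Acadl 0.052, Ccnd1 -0.16 and Alas2 -0.058; with precision weights, Bckdhb -0.012, Cpt1a -0.12, Ccnd1 -0.65 and Alas2 -0.15; with TMM scaling, Cpt1a -0.0048; and without the 3 shallow libraries, Bckdha 0.10, Dbt -0.047, Acadl 0.091, Cpt1a -0.20, Ccnd1 -0.82, Alas2 -0.019 and Cfd 0.11. Leaving out 1 library gave -0.075 to 0.028 for Bckdha, -0.029 to 0.098 for Bckdhb, -0.038 to 0.057 for Acadl, -0.24 to 0.36 for Cpt1a and -0.29 to 1.54 for Ccnd1. The cause was not tested. Depth limits low genes most, since a count of 0 in vehicle replicate 4 allows up to 31.0 normalized counts.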
